A study of Mus musculus with 16 samples.

Results

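The receptors described are 45 mouse olfactory receptor genes whose annotated symbols run by number from Olfr90 to Olfr139, pseudogenes left out, with 1 probe set per gene. They are 45 of the 1080 olfactory receptors and of the 19505 named genes on the array. By the reference gene table, 44 of the 45 lie on chromosome 17, in the receptor cluster beside the major histocompatibility complex (MHC). Places along it, such as first, last, next, neighbouring or adjacent, are given among these members. Genes left out of the set may lie between them. Olfr139 (MOR255-2) lies on chromosome 11, so the name of the cluster does not hold for it; it is kept because the rule is one of symbols.

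All mice were S100a5-tauGFP animals, in which the S100a5 gene controls a green fluorescent protein (GFP) fused to tau. S100a5 encodes a calcium-binding protein whose level in olfactory sensory neurons rises with their activity, so GFP marks neurons that were recently active. A total of 24 mice of both sexes, 7 to 12 weeks old, each spent 40 h alone in a chamber with clean air flowing at 3.1 L/min. From 26 h on, each received pulses of 10 s every 20 min, either of filtered air (vehicle) or of 2-hexanone, a ketone odorant with a chain of 6 carbons (odor). Olfactory mucosa of 3 mice at a time was pooled and sorted into GFP+ and GFP- cells, which gave 4 vehicle pools and 4 odor pools, 8 GFP+ and 8 GFP- samples and 16 Clariom S arrays. Vehicle GFP+, vehicle GFP-, odor GFP+ and odor GFP- thus hold 4 arrays each, every array is a mean over 3 animals, and both fractions of a pool come from the same mice. Every group carries the reporter, and the GFP- fraction is everything the sort left behind rather than a purified cell type. The assay names receptors of active neurons from the difference between the fractions and asks which of them respond to the odorant.

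Olfactory receptors are G protein-coupled receptors in the cilia of sensory neurons. A mature neuron transcribes 1 receptor allele and silences the rest, so the level of a receptor's transcript in a cell pool follows both the number of neurons that chose it and the transcript per neuron. In bulk samples such as these, fewer cells of a type and less RNA per cell cannot be told apart. Receptor genes sit in tandem clusters that arose by local duplication, and the chromosome 17 cluster shares its stretch of genome with MHC class I genes, including those of the H2-M group. MOR names group receptors into families by sequence. Olfr124, also known as SR1 or MOR256-3, is known for an unusually broad response to odorants; the odorants that activate most of the other members are not known well enough to be named here.

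Neighbouring members can be nearly identical at their starts, which bears on how far their probe sets can be read apart. The reference promoter table (RefSeq, GRCm38.p6) held windows for 35 of the 45 members; Olfr91, Olfr103, Olfr112, Olfr116, Olfr117, Olfr121, Olfr126, Olfr129, Olfr138 and Olfr137 had none. In 22 of the 35 the annotated gene begins at its start codon, so the window gives the first 50 coding bases, and among the 231 pairs of these 22 starts 7 pairs were identical at 40 or more of 50 positions (median over all pairs 16, over pairs of the same family 18). Those 7 pairs involve the 11 genes printed here 5′ to 3′ on the coding strand, in lower case. Capitals mark bases that differ from the gene printed first in the group; Olfr98 is compared with Olfr99, Olfr93 with Olfr92, Olfr114 with Olfr113, Olfr134 and Olfr135 with Olfr133, and Olfr128 with Olfr127.
Olfr99 (chr17:37280369-37280418, strand minus): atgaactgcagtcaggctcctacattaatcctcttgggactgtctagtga
Olfr98 (chr17:37263613-37263662, strand minus): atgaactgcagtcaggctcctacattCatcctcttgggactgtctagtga
Olfr92 (chr17:37111931-37111980, strand minus): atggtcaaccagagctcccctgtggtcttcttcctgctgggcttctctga
Olfr93 (chr17:37151921-37151970, strand minus): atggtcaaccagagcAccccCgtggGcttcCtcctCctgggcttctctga
Olfr113 (chr17:37575372-37575421, strand minus): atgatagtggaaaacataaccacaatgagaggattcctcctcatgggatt
Olfr114 (chr17:37590302-37590351, strand minus): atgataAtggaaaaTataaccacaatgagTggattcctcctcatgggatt
Olfr133 (chr17:38148590-38148639, strand plus): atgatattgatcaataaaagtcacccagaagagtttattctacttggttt
Olfr134 (chr17:38175086-38175135, strand plus): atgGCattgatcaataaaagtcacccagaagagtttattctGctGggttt
Olfr135 (chr17:38208247-38208296, strand plus): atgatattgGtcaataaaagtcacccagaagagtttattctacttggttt
Olfr127 (chr17:37903548-37903597, strand plus): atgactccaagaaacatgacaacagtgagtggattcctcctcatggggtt
Olfr128 (chr17:37923568-37923617, strand plus): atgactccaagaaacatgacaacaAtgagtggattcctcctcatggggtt
Olfr98 and Olfr99 differ at 1 of these 50 positions, as do Olfr127 and Olfr128, and Olfr133 and Olfr135. Olfr113 and Olfr114 differ at 3, Olfr133 and Olfr134 at 4, and Olfr92 and Olfr93 at 5. Of the 7 pairs, 3 had the same calls for both genes when GFP+ and GFP- cells were compared, and Olfr113 and Olfr114 were called in opposite directions. The positions of the array's probes were not analysed here, so signal shared between such copies was not tested, and the values of these 11 genes are uncertain to that extent. Only the first 50 coding bases of 22 of the 45 members were compared. Likeness further along these genes or among the other members was not examined, and their values may be uncertain too.

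The values are deposited log2 signals, one per probe set and array, and a difference of 1 is a doubling on that scale. They run from 1.25 to 19.81, above the 16 that a 16-bit scanner allows, so an unstated transformation of scale acts on all differences and folds. An array's background floor is the highest of its 23 antigenomic background bins (6.16 to 7.33, mean 6.61). The median signal of an array lay between 5.70 and 5.76 for sorted GFP+ cells and between 6.06 and 6.12 for GFP- cells. Averaged over the 45 members, single arrays deviated from their group mean by -0.502 (vehicle GFP- replicate 4) to 0.467 (vehicle GFP- replicate 1). The sort itself was visible in S100a5: GFP+ values were higher by 1.38 ± 0.25 in vehicle (2.60-fold; adjusted p = 0.000514) and 1.61 ± 0.25 in odor (3.06-fold; adjusted p = 9.83e-05), with no overlap between fractions in either treatment. Its values in vehicle were 17.02, 16.27, 16.25 and 16.11 in GFP+ and 15.60, 15.06, 14.94 and 14.54 in GFP- cells, and in odor 16.92, 16.83, 16.17 and 16.98 and 15.18, 15.13, 14.89 and 15.23. Omp, the marker of mature olfactory neurons, lay near the top of the scale in all 4 groups, at 19.45, 19.44, 19.19 and 19.42 in vehicle GFP+, 19.48, 19.39, 19.34 and 19.27 in vehicle GFP-, 19.50, 19.45, 19.41 and 19.44 in odor GFP+ and 19.49, 19.37, 19.23 and 19.34 in odor GFP- cells, and was not called different between fractions (0.01 ± 0.14 and 0.09 ± 0.14). Of 10 mature neuron markers, 2 rose in GFP+ cells in vehicle (Adcy3, the adenylyl cyclase of odor transduction, and Ano2, its chloride channel) and 1 in odor (Ano2).

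Of the 45 members, 19 lay above the floor on all 16 arrays, 23 on some and 3 (Olfr108, Olfr118 and Olfr128) on none; no filter on low values was applied, and all 45 were tested. In vehicle, 15 members were higher in GFP+ than in GFP- cells, 11 were lower and 19 were not called (limma, Benjamini-Hochberg adjusted p below 0.05 over 22206 probe sets). Over all probe sets 5.83% were called higher and 9.86% lower. With 2-hexanone the counts were again 15 higher, 11 lower and 19 not called, against 5.29% and 9.56% of all probe sets. The members' median log2 difference was 0.28 in vehicle and 0.22 in odor, beside 0.14 over all probe sets in each. Of the other 1035 receptors, 36.1% were called higher and 22% lower in vehicle and 36.3% and 21.6% in odor. The members stood at 33.3% and 24.4% in each treatment, close to the other receptors. Centring every array on its median moved the median over all probe sets to 0.50 in vehicle and 0.49 in odor and the share of calls that were higher from 37.2% to 83.7% and from 35.6% to 83.2%; of the members, 18 were then higher and 11 lower in each treatment.

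Taken across treatments, 14 members were higher and 10 lower in both, 4 were called in 1 treatment and 17 in neither. Of all probe sets 3.03% were higher and 8.37% lower in both; of the other 1035 receptors it was 32.8% and 19.9%, beside 31.1% and 22.2% of the members, so these shares are near those of receptors in general. The vehicle and odor comparisons share no arrays. Across the 45 members, which are not independent replicates, their log2 differences had a Pearson r of 0.985 and a Spearman rho of 0.939, and the r over the other 1035 receptors was 0.975. The sign was the same in both treatments for 41 members, a count not made for the other receptors or for all probe sets. In 27 members the sign was the same in all 8 pools, 15 of them higher and 12 lower in GFP+ cells (33.3% and 26.7% of the members). The same was found for 10.9% of all probe sets in each direction, and for 39.6% and 22.2% of the other receptors.

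**Figure D1:**
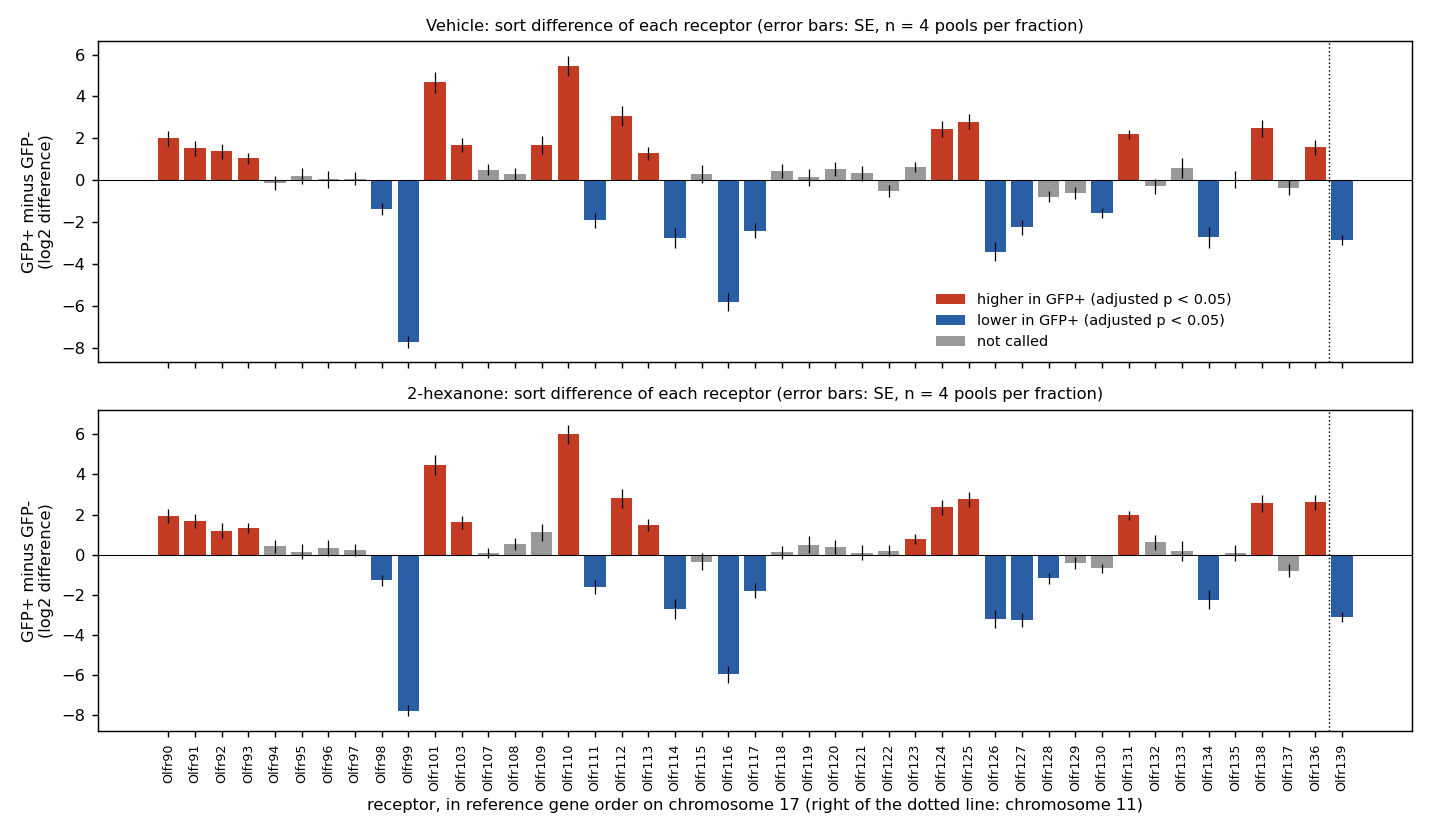
Bars give the log2 difference between GFP+ and GFP- cells (vertical axis) of each of the 45 receptors, in vehicle (top) and 2-hexanone (bottom), in reference order along chromosome 17, with Olfr139 of chromosome 11 right of the dotted line; error bars are the SE of the fit (4 pools per fraction). The same 14 bars are red and the same 10 blue in both panels, from 5.45 and 6.0 for Olfr110 to -7.71 and -7.77 for Olfr99.

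Olfr110, the only member of family MOR249, had the largest rise. The 4 vehicle pools had log2 values of 12.60, 11.87, 11.35 and 12.11 in GFP+ and 7.26, 5.72, 6.33 and 6.82 in GFP- cells. The odor pools had 12.92, 10.62, 12.51 and 10.81 in GFP+ and 6.30, 4.94, 6.19 and 5.44 in GFP- cells. Every GFP+ array was above every GFP- array, and 2 of the 4 vehicle GFP- arrays and none of the odor GFP- arrays lay above their floor. GFP+ cells were higher by log2 differences of 5.45 ± 0.48 in vehicle (adjusted p = 1.16e-07) and 6.0 ± 0.48 in 2-hexanone (3.26e-08), a fold of 35.2 in vehicle with arrays under the floor raised to it and of at least 32 in odor. Among the 1080 receptors the difference ranked 4 from the top in vehicle and 3 in odor.

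Olfr101 (MOR250-2) was second. Olfr101 read 12.11, 11.17, 10.71 and 9.98 in the GFP+ cells and 7.46, 6.49, 5.82 and 5.52 in the GFP- cells of the vehicle pools. After 2-hexanone it read 11.67, 10.55, 11.49 and 10.10 and 6.91, 6.63, 6.93 and 5.45. The fractions did not overlap in either treatment, and the GFP- arrays lay close to their floors, 1 of 4 above it in vehicle and 2 of 4 in odor. It was higher in GFP+ cells by log2 differences of 4.67 ± 0.49 in vehicle (adjusted p = 1.03e-06) and 4.47 ± 0.49 in 2-hexanone (1.74e-06), or 19-fold and 17.3-fold with arrays under the floor raised to it. Its family relative Olfr103 (MOR250-3), the next member along the chromosome, rose less. The log2 differences of Olfr103 were 1.67 ± 0.33 in vehicle (limma adjusted p = 0.00139) and 1.62 ± 0.33 in 2-hexanone (0.00184). Olfr103 values were 8.65, 8.18, 7.13 and 7.84 in vehicle GFP+ against 6.86, 6.93, 6.02 and 5.32 in vehicle GFP- cells, and 8.03, 7.73, 8.05 and 8.16 against 6.63, 6.12, 6.13 and 6.60 in odor, again without overlap.

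Olfr112 (MOR218-4) was well above background in both fractions. Its log2 signals were 13.11, 11.54, 12.66 and 11.63 in vehicle GFP+ and 10.25, 9.41, 8.96 and 8.10 in vehicle GFP- cells. The same fractions of the odor pools gave 12.72, 11.54, 13.00 and 11.53 and 10.20, 9.29, 9.64 and 8.44. GFP+ arrays all exceeded GFP- arrays, by log2 differences of 3.05 ± 0.48 in vehicle (adjusted p = 0.000136) and 2.81 ± 0.48 in 2-hexanone (0.000327), or 8.31-fold and 6.99-fold. Olfr125 (MOR218-8), of the same family but further along the cluster, had vehicle values of 10.64, 10.17, 10.10 and 9.76 in GFP+ and 7.89, 7.38, 6.64 and 7.58 in GFP- cells. Its odor values were 10.50, 10.31, 10.50 and 9.75 and 7.81, 6.21, 8.06 and 7.98. The fractions were apart in both treatments, and Olfr125 was higher by log2 differences of 2.79 ± 0.36 in vehicle (adjusted p = 1.26e-05) and 2.75 ± 0.36 in 2-hexanone (1.46e-05), a fold of 6.92 in vehicle.

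Olfr124, the broadly tuned receptor SR1, lies beside Olfr125. In vehicle the log2 values of Olfr124 were 11.02, 11.15, 11.51 and 11.53 in GFP+ and 8.94, 7.63, 10.16 and 8.64 in GFP- cells. With 2-hexanone they were 10.50, 10.82, 10.85 and 11.42 in GFP+ and 8.85, 8.74, 8.78 and 7.83 in GFP- cells. The lowest GFP+ array stood above the highest GFP- array in each treatment, and all 16 arrays were above the floor. Olfr124 was higher in GFP+ cells by log2 differences of 2.46 ± 0.38 in vehicle (adjusted p = 0.000116) and 2.35 ± 0.38 in 2-hexanone (0.000191), or 5.5-fold and 5.08-fold. The 250 bases before the annotated starts of Olfr124 and Olfr125, members of different families, are shown (RefSeq, GRCm38.p6, 5′ to 3′ on the plus strand). Capitals mark a TAATNA match on either strand.
Olfr124 (chr17:37804819-37805068, strand plus): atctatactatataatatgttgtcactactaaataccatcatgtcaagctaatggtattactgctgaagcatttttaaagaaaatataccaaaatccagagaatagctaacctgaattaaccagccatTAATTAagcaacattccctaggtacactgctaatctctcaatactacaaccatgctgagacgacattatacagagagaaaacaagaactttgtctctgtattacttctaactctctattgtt
Olfr125 (chr17:37834661-37834910, strand plus): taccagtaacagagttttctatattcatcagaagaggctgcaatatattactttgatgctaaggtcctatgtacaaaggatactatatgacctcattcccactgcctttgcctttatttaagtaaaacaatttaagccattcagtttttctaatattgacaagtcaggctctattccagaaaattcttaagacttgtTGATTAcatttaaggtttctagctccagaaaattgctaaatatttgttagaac
Each window holds 1 such match, a motif of homeodomain proteins such as Lhx2. In the table's whole windows, which add the first 50 bases after the start, the motif was present in 17 of the 35 members with a window (48.6%), 66.6% of 909 windows of other receptors and 26.5% of all 32851 windows. CCCNNGGG, a motif of the Ebf factors, was present in 5 of 35 members (14.3%), 2.64% of the other receptors' windows and 13.7% of all windows. Both motifs were searched on both strands. The whole window of Olfr131, also higher in both treatments, held a TAATNA match. Those of Olfr90, Olfr92, Olfr93, Olfr101, Olfr110, Olfr113 and Olfr136, all higher in both treatments, held none. Among members lower in both treatments, the whole windows of Olfr98, Olfr99, Olfr134 and Olfr139 held a match. Those of Olfr111, Olfr114 and Olfr127, also lower in both, held none. A link between these motifs and the sort differences was not tested. For the 22 members whose annotated gene begins at the start codon these windows may not be promoters.

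The remaining members named among the strongest rises were of family MOR256, from both ends of the cluster. Olfr138 had values of 7.74, 8.0, 7.33 and 8.11 in vehicle GFP+ and 6.21, 5.81, 5.21 and 4.08 in vehicle GFP- cells, and 8.22, 8.61, 8.13 and 7.95 and 6.28, 6.0, 5.93 and 4.50 in odor. All 8 of its GFP- arrays were under the floor, so the rise, by log2 differences of 2.47 ± 0.40 in vehicle (adjusted p = 0.000184) and 2.55 ± 0.40 in 2-hexanone (0.000128), is a fold of at least 2.36 and 2.86. Olfr131 differed by 1.73 to 2.36 within the 8 pools, with 12.03, 11.98, 11.60 and 11.95 in vehicle GFP+ against 9.67, 9.96, 9.56 and 9.59 in vehicle GFP- cells. In odor it had 11.77, 11.64, 12.44 and 11.82 against 9.49, 9.91, 10.66 and 9.75. Its fractions were separate throughout, by log2 differences of 2.19 ± 0.23 in vehicle (adjusted p = 1.39e-06) and 1.97 ± 0.23 in 2-hexanone (5.22e-06), or 4.58-fold and 3.91-fold.

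Olfr136 (MOR256-7) is the last member along the cluster. The 4 vehicle pools had log2 values of 10.16, 11.11, 10.35 and 9.63 in GFP+ and 9.52, 8.61, 8.69 and 8.13 in GFP- cells. The odor pools had 10.58, 11.34, 11.15 and 10.76 in GFP+ and 9.09, 8.07, 8.76 and 7.52 in GFP- cells. The fractions did not overlap, and GFP+ cells were higher by log2 differences of 1.57 ± 0.36 in vehicle (adjusted p = 0.0046) and 2.60 ± 0.36 in 2-hexanone (3.15e-05), or 2.98-fold and 6.05-fold; without vehicle replicate 2 the vehicle difference was 1.27 and missed the threshold (adjusted p = 0.0513). The change of the Olfr136 difference with odor was 1.02 ± 0.51 and was not called. Olfr90, the first receptor of the cluster, had vehicle values of 7.15, 8.38, 6.29 and 7.76 in GFP+ and 6.0, 5.0, 4.96 and 5.59 in GFP- cells and odor values of 7.83, 7.02, 7.09 and 7.23 and 5.65, 4.89, 5.57 and 5.35. Its fractions were separate and its GFP- arrays all under the floor, and it rose by log2 differences of 2.01 ± 0.36 in vehicle (adjusted p = 0.000447) and 1.93 ± 0.36 in 2-hexanone (0.000675), a fold of at least 1.79 and 1.49. With arrays raised to their floor the odor call of Olfr90 was lost (adjusted p = 0.212).

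The other 4 members that rose in both treatments were Olfr91, Olfr92, Olfr93 and Olfr113, by 1.04 to 1.52 in vehicle and 1.20 to 1.66 in odor. Olfr91, Olfr92 and Olfr93 follow Olfr90 without a gap in the set and belong to the same family, so the first 4 members along the cluster all rose. These receptors lay near the floor: Olfr91, Olfr92 and Olfr93 were above it on 7, 6 and 8 of 16 arrays. With GFP- arrays under the floor raised to it, their folds were 1.45, 1.43 and 1.6 in vehicle. In odor they were 1.66, 1.21 and 1.74. Olfr91 lost its vehicle call without vehicle replicate 4 (1.01, adjusted p = 0.0782). Olfr92 was the least stable: its vehicle call was lost without vehicle replicate 4 (1.07, adjusted p = 0.0526), in a fit of the vehicle arrays alone (1.38, 0.054) and with arrays raised to their floor (0.62, 0.059), and its odor call was lost without any 1 of the 4 odor pools (1.10 to 1.33, adjusted p = 0.0589 to 0.149), with arrays raised to their floor (0.34, 0.538) and when both replicate 1 pools were left out (1.19, 0.0798).

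**Figure D2:**
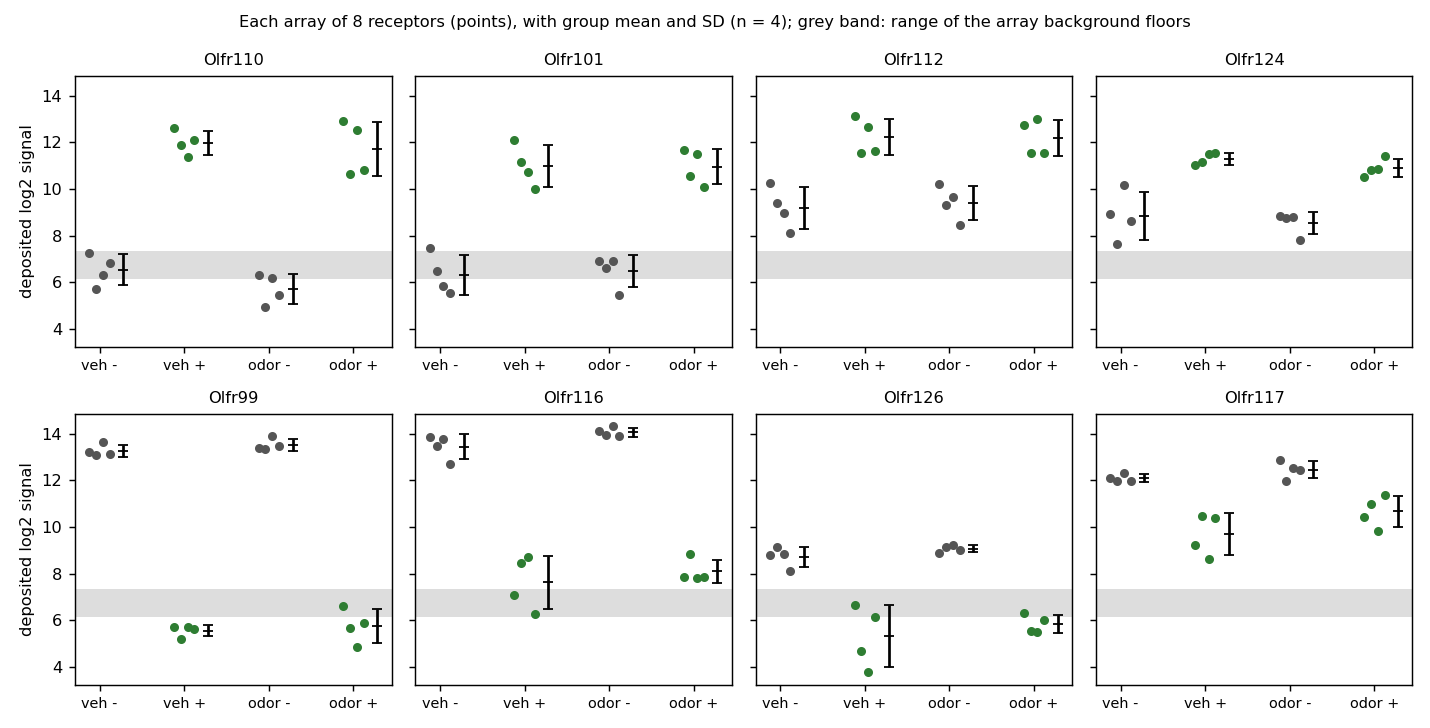
Points are the deposited log2 signals (vertical axis) of 8 receptors on each of 16 arrays, in GFP- (grey, "-") and GFP+ (green, "+") cells after vehicle (veh) or 2-hexanone (odor), with the mean and SD of the 4 pools beside them; the grey band spans the arrays' background floors, 6.16 to 7.33. The top row holds receptors higher and the bottom row receptors lower in GFP+ cells, and no green point overlaps the grey points of its treatment.

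Olfr99 (MOR156-1) stood at the other end. Olfr99 read 5.71, 5.19, 5.72 and 5.62 in the GFP+ cells and 13.23, 13.07, 13.63 and 13.14 in the GFP- cells of the vehicle pools. After 2-hexanone it read 6.61, 5.65, 4.87 and 5.87 and 13.39, 13.34, 13.89 and 13.47. All 8 GFP- arrays were bright and all 8 GFP+ arrays were under the floor. GFP+ cells were lower by log2 differences of -7.71 ± 0.28 in vehicle (adjusted p = 3.48e-12) and -7.77 ± 0.28 in 2-hexanone (2.24e-12), at least 112-fold in vehicle and 111-fold in odor. The difference ranked 3 from the bottom of 1080 receptors in each treatment.

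Olfr98 (MOR156-4), whose first 50 coding bases differ from those of Olfr99 at 1 position, fell by a smaller difference. Its log2 signals were 6.83, 7.65, 7.17 and 7.61 in vehicle GFP+ and 9.31, 8.89, 8.46 and 8.07 in vehicle GFP- cells. The same fractions of the odor pools gave 7.53, 7.18, 7.45 and 6.79 and 8.82, 8.16, 8.53 and 8.58. Every GFP- array was above every GFP+ array and all 16 exceeded the floor. Olfr98 was lower by log2 differences of -1.37 ± 0.27 in vehicle (adjusted p = 0.00105) and -1.28 ± 0.27 in 2-hexanone (0.0019), or 2.58-fold and 2.44-fold. Signal of Olfr99 transcript on the Olfr98 probe set was not tested.

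Olfr116 (MOR218-2) was the next largest fall. In vehicle the log2 values of Olfr116 were 7.07, 8.46, 8.69 and 6.28 in GFP+ and 13.87, 13.45, 13.75 and 12.71 in GFP- cells. With 2-hexanone they were 7.87, 8.85, 7.83 and 7.85 in GFP+ and 14.11, 13.93, 14.32 and 13.89 in GFP- cells. GFP- cells were higher on every array, and 7 of the 8 GFP+ arrays still lay above the floor. The log2 differences were -5.82 ± 0.42 in vehicle (adjusted p = 1.05e-08) and -5.96 ± 0.42 in odor (7.67e-09), 54.1-fold with the array under the floor raised to it and 62.3-fold. Olfr117 (MOR256-33), its neighbour, was lower too, by -2.40 ± 0.37 (0.000114) and -1.79 ± 0.37 (0.00207), or 5.27-fold and 3.46-fold. Olfr117 had vehicle values of 9.24, 10.48, 8.64 and 10.39 in GFP+ and 12.10, 11.95, 12.33 and 11.96 in GFP- cells and odor values of 10.44, 10.99, 9.84 and 11.39 and 12.89, 11.97, 12.53 and 12.43, without overlap and all above the floor.

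Olfr126 and Olfr127 (MOR218-1 and MOR218-7) are adjacent and fell together. The vehicle values of Olfr126 were 6.64, 4.69, 3.76 and 6.16 in GFP+ and 8.79, 9.13, 8.86 and 8.09 in GFP- cells, and its odor values 6.33, 5.56, 5.5 and 5.99 and 8.89, 9.12, 9.24 and 9.01. Olfr127 had 6.19, 4.59, 5.79 and 5.29 in vehicle GFP+ and 8.17, 7.53, 8.0 and 7.15 in vehicle GFP- cells, and 5.07, 5.17, 4.48 and 5.26 and 9.04, 8.41, 7.58 and 8.02 in odor. For both, GFP- arrays were above GFP+ arrays throughout, and 1 vehicle GFP+ array and no odor GFP+ array lay above the floor. The fall of Olfr126 was -3.41 ± 0.45 in vehicle (adjusted p = 1.58e-05) and -3.22 ± 0.45 in odor (3.08e-05; at least 5.04-fold). That of Olfr127 was -2.25 ± 0.35 (0.0001) and -3.27 ± 0.35 (1.20e-06; at least 2.89-fold).

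Olfr114 (MOR218-10) fell where Olfr113, 3 bases different at its start, rose. Olfr114 values were 5.08, 5.06, 4.96 and 5.53 in vehicle GFP+ and 8.18, 8.14, 8.04 and 7.30 in vehicle GFP- cells, and 5.68, 5.52, 3.50 and 3.82 and 8.22, 7.41, 7.73 and 5.96 in odor. The fractions did not overlap and no GFP+ array was above the floor. Its differences were -2.76 ± 0.48 (adjusted p = 0.00034; at least 2.75-fold) and -2.70 ± 0.48 (0.000413; at least 1.52-fold), and the odor call was lost with arrays raised to their floor (-0.80, adjusted p = 0.055). Olfr113 itself was higher by log2 differences of 1.29 ± 0.32 in vehicle (adjusted p = 0.00787) and 1.48 ± 0.32 in 2-hexanone (0.00258), or 2.44-fold and 2.79-fold, above the floor on all 16 arrays.

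Olfr134 (MOR256-5) lies between Olfr133 and Olfr135, which share 46 and 45 of its first 50 coding bases and were called in neither treatment. Olfr134 had 6.50, 5.25, 4.55 and 5.17 in vehicle GFP+ and 8.38, 8.54, 8.07 and 7.41 in vehicle GFP- cells, and 6.37, 5.46, 5.97 and 4.73 and 8.88, 8.71, 6.88 and 7.08 in odor. Every GFP- array exceeded every GFP+ array, with 1 of 8 GFP+ arrays above the floor. It was lower by -2.73 ± 0.48 (adjusted p = 0.000436) and -2.25 ± 0.48 (0.00262; at least 2.23-fold). Olfr133 differed by 0.59 ± 0.48 and 0.18 ± 0.48 (95% intervals -0.42 to 1.60 and -0.83 to 1.19), and Olfr135 by 0.02 ± 0.40 and 0.10 ± 0.40 (-0.82 to 0.85 and -0.74 to 0.93).

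Olfr111, which has no MOR name in the reference table, sits between Olfr110 and Olfr112 and went the other way from both. Its values were 5.23, 4.74, 6.10 and 4.81 in vehicle GFP+ and 7.68, 6.97, 7.57 and 6.33 in vehicle GFP- cells, and 5.68, 4.58, 6.05 and 5.33 and 7.28, 6.98, 6.95 and 6.91 in odor. GFP- arrays were all above the floor and above the GFP+ arrays, none of which reached it. The fall was -1.92 ± 0.35 (adjusted p = 0.000514; at least 1.60-fold) and -1.62 ± 0.35 (0.0025; at least 1.23-fold). Both calls were lost with arrays raised to their floor (-0.68 and -0.30, adjusted p = 0.0898 and 0.857).

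Olfr139, the member on chromosome 11, was lower as well. The 4 vehicle pools had log2 values of 4.41, 4.32, 4.46 and 4.12 in GFP+ and 6.96, 7.16, 7.26 and 7.29 in GFP- cells. The odor pools had 3.95, 4.22, 4.97 and 4.90 in GFP+ and 8.07, 7.44, 7.19 and 7.73 in GFP- cells. The GFP- arrays were all above the floor and the GFP+ arrays all under it, so the falls of -2.84 ± 0.23 (adjusted p = 5.05e-08) and -3.10 ± 0.23 (1.62e-08) are folds of at least 1.63 and 1.84. Without Olfr139 the 44 receptors on chromosome 17 counted 15 higher and 10 lower in each treatment.

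Members called in 1 treatment were Olfr130, Olfr109, Olfr128 and Olfr123, and for none of them was the change of the sort difference with odor called (adjusted p = 1 for each). Olfr130 (MOR256-19) had 9.71, 9.19, 9.25 and 9.06 in vehicle GFP+ and 10.73, 10.62, 11.38 and 10.81 in vehicle GFP- cells, and 10.56, 9.77, 10.36 and 10.39 and 10.76, 10.57, 11.44 and 11.03 in odor. The fractions were apart in both treatments, by -1.58 ± 0.24 in vehicle (adjusted p = 7.15e-05) and -0.68 ± 0.24 in odor (0.0635). With the pool as a random block the odor difference passed (adjusted p = 0.0341), as it did with the replicate block (0.0293).

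Olfr109 (MOR250-1) was higher in GFP+ cells in vehicle. It had 9.47, 8.71, 7.65 and 8.24 in vehicle GFP+ and 7.69, 7.37, 6.89 and 5.34 in vehicle GFP- cells, which overlapped, and 9.16, 8.12, 8.97 and 9.0 and 7.26, 7.96, 7.65 and 7.92 in odor, which did not. The differences were 1.69 ± 0.43 (adjusted p = 0.0105) and 1.11 ± 0.43 (0.101); the odor difference passed without vehicle replicate 4 (0.0334), which enters it only through the shared estimate of spread, and with the pool as a fixed block (0.0422).

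Olfr128 (MOR218-13) lay under the floor on all 16 arrays, so no fold is given. Its values were 5.13, 4.10, 4.36 and 4.10 in vehicle GFP+, 5.28, 5.19, 5.59 and 4.74 in vehicle GFP-, 4.86, 4.06, 4.38 and 4.61 in odor GFP+ and 5.76, 5.89, 5.85 and 5.15 in odor GFP- cells. Fractions overlapped in vehicle and not in odor. The differences were -0.78 ± 0.26 (adjusted p = 0.0517) and -1.18 ± 0.26 (0.00332). The vehicle difference passed with the pool as a random block (0.0288), with the replicate block (0.0238) and without vehicle replicate 1 (-0.99, 0.0199), and the odor call was lost without odor replicate 2 (-0.97, 0.0503). Olfr123 (MOR256-9) had 8.13, 7.29, 7.49 and 7.28 and 6.76, 7.30, 6.78 and 6.83 in vehicle GFP+ and GFP- cells and 8.43, 7.30, 8.20 and 8.20 and 7.47, 7.33, 6.94 and 7.22 in odor, overlapping in both. Its odor difference of 0.79 ± 0.25 passed (adjusted p = 0.0396) and its vehicle difference of 0.63 ± 0.25 did not (0.105). The odor call of Olfr123 was lost without odor replicate 1, 3 or 4 or vehicle replicate 3 (limma adjusted p = 0.121, 0.207, 0.168 and 0.0552). It was also lost with the pool as a fixed block (0.0553), with array weights (0.056), in a fit of the odor arrays alone (0.0564) and without both replicate 1 pools (0.0903). Its vehicle difference passed with quantile normalization over all arrays (0.87, limma adjusted p = 0.0135) and after centring each array on its median (0.99, 0.00482).

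The 17 members called in neither treatment were Olfr94, Olfr95, Olfr96, Olfr97, Olfr107, Olfr108, Olfr115, Olfr118, Olfr119, Olfr120, Olfr121, Olfr122, Olfr129, Olfr132, Olfr133, Olfr135 and Olfr137. Their log2 differences ran from -0.62 to 0.59 in vehicle and from -0.79 to 0.61 in odor, and the lowest adjusted p was 0.158 and 0.147. Their 95% intervals together reached from -1.20 to 1.60 in vehicle and from -1.52 to 1.38 in odor, so differences of that size are not excluded for single genes. Several were bright in both fractions. Olfr97 (MOR156-2) had 10.42, 10.84, 10.72 and 11.71 in vehicle GFP+ against 11.08, 10.80, 11.07 and 10.53 in vehicle GFP- cells (difference 0.06 ± 0.31, 95% interval -0.59 to 0.70). Olfr115 (MOR218-11P) had 10.56, 12.09, 10.89 and 12.24 against 11.64, 11.44, 11.61 and 9.88 in the same groups (0.31 ± 0.44, -0.63 to 1.24). Olfr96 (MOR121-1) had 10.04, 11.06, 10.59 and 9.28 against 10.95, 10.28, 9.72 and 9.85 (0.04 ± 0.40, -0.81 to 0.89). The fractions of these 3 receptors overlapped. Without vehicle replicate 4, Olfr129 was called lower in vehicle (-0.98, adjusted p = 0.0342), and with the pool as a fixed block Olfr137 was called lower in odor (-0.79, 0.0282). After centring each array on its median, 4 others were called higher: Olfr107 (0.86, limma adjusted p = 0.0149) and Olfr120 (0.90, 0.0444) in vehicle, and Olfr108 (0.87, 0.0246) and Olfr132 (0.96, 0.0376) in odor.

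By family, 8 of the 17 receptors of MOR256 rose and 2 fell in both treatments, 2 were called in 1 treatment and 5 in neither. The 9 receptors of MOR218 were split, with 3 higher (Olfr112, Olfr113 and Olfr125), 4 lower (Olfr114, Olfr116, Olfr126 and Olfr127), 1 called in 1 treatment and 1 in neither, over a range from -5.82 to 3.05 in vehicle. All 3 of MOR250 were higher in vehicle, by 1.67 to 4.67. Of these, 2 were higher in both treatments, and Olfr109 was not called in odor (1.11 ± 0.43, limma adjusted p = 0.101). Of 5 in MOR156, 2 fell and 3 were called in neither. None of the 7 in MOR263 was called (-0.62 to 0.54 in vehicle, -0.42 to 0.50 in odor), apart from the calls of Olfr120 after centring and of Olfr129 without vehicle replicate 4. Over all probe sets 3.03% were higher and 8.37% lower in both treatments, and over the other 1035 receptors 32.8% and 19.9%. The families were compared by counts, with no test between them.

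**Figure D3:**
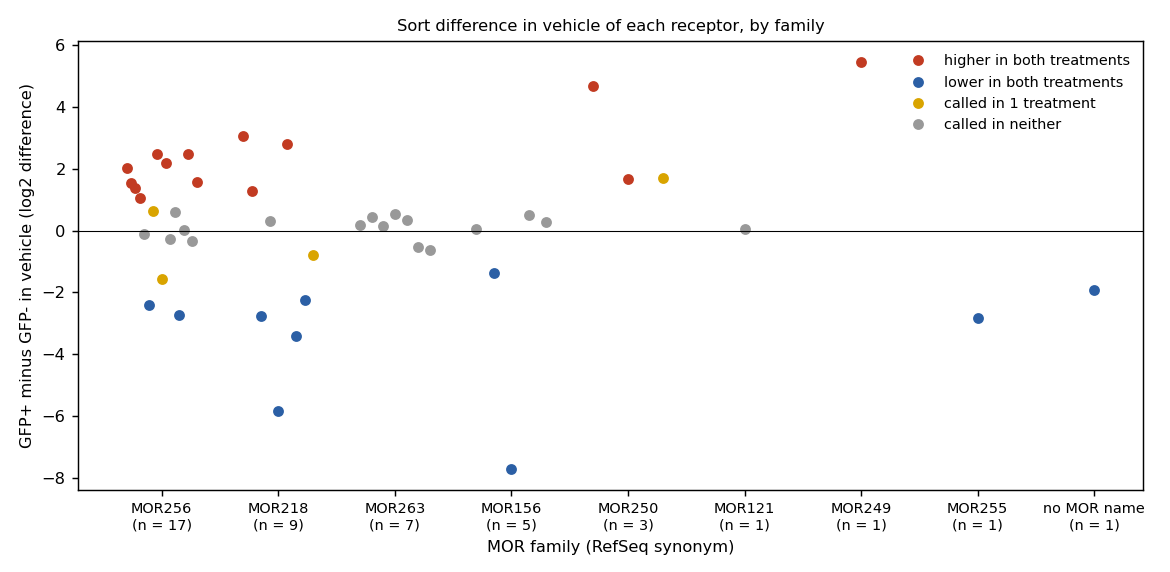
Each point is 1 receptor, placed by MOR family (horizontal axis) and by its log2 difference between GFP+ and GFP- cells in vehicle (vertical axis), coloured by its calls in the 2 treatments. The 17 MOR256 points lie between -2.73 and 2.47, the 9 MOR218 points from -5.82 to 3.05 on both sides of 0, and the 7 MOR263 points between -0.62 and 0.54.

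Along the chromosome, the 44 receptors form 43 pairs of members next to each other in the set, with genes left out of it possibly between them. In 9 pairs both receptors were called in the same direction in both treatments, and in 5 they were called in opposite directions: Olfr99 and Olfr101, Olfr110 and Olfr111, Olfr111 and Olfr112, Olfr113 and Olfr114, and Olfr125 and Olfr126. The median step between neighbours was 1.55 on the log2 scale (mean of both treatments), and the largest was 12.31, from Olfr99 to Olfr101. Stretches without a call in either treatment ran from Olfr94 to Olfr97 and from Olfr118 to Olfr122. The run from Olfr90 to Olfr93 rose in both treatments. The pair counts were not tested, and none were made for other receptor clusters.

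The question the assay puts to these receptors, whether 2-hexanone changed their level, was answered by the same fit. In GFP+ cells 0 of 45 members were called between odor and vehicle, beside 0.00901% of all probe sets. In GFP- cells 0 were called, beside 0% of all. For the change of the sort difference 0 were called, again beside 0.00901%. At an unadjusted p below 0.05, 3 of the 45 members passed in GFP+ cells, beside 869 of all 22206 probe sets and 82 of the other 1035 receptors. In GFP- cells 1 member passed, beside 547 and 57. For the change of the sort difference 1 member passed, beside 650 and 40. The differences ran from -0.53 to 0.98 in GFP+ and from -0.81 to 0.87 in GFP- cells, with a median SE of 0.36, and the median over members was 0.13 and 0.08, beside 0 over all probe sets in each. The members' 95% intervals together reached from -1.53 to 1.76 in GFP+ and from -1.82 to 1.79 in GFP- cells. With 4 pools per group, a difference inside a gene's own interval is not excluded for that gene.

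The lowest p-values in GFP+ cells belonged to Olfr130, Olfr117 and Olfr122. Olfr130, whose array values are given with its sort difference, was 0.97 ± 0.24 higher with 2-hexanone (unadjusted p = 0.000701, limma adjusted p = 0.865), every odor GFP+ array lying above every vehicle GFP+ array. Its GFP- arrays overlapped between treatments, and the change of its sort difference was 0.90 ± 0.33 (95% interval 0.20 to 1.60) and was not called. Olfr117 was 0.98 ± 0.37 higher (95% interval 0.19 to 1.76) and overlapped between treatments. Olfr122 (MOR263-10) had 9.38, 8.73, 9.20 and 9.05 in odor GFP+ and 8.78, 8.58, 7.75 and 8.80 in vehicle GFP+ cells, a difference of 0.61 ± 0.28 (0.03 to 1.20), with 8.75, 9.24, 8.62 and 8.96 and 9.41, 9.52, 8.64 and 8.41 in the GFP- cells of the same treatments. None of the 3 passed the adjustment over all probe sets.

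In GFP- cells the lowest p-values were those of Olfr132, Olfr109 and Olfr139, with adjusted p of 1 in limma for each. Olfr132 (MOR256-49) had 9.57, 8.29, 10.24 and 9.09 in odor GFP- and 10.25, 9.61, 10.46 and 9.89 in vehicle GFP- cells, a difference of -0.76 ± 0.36 (95% interval -1.51 to 0.00), and the groups overlapped. In GFP+ cells it had 10.48, 9.33, 10.23 and 9.57 with odor and 10.42, 9.65, 9.52 and 9.48 with vehicle. Olfr109 differed by 0.87 ± 0.43 (-0.04 to 1.79) and Olfr139 by 0.44 ± 0.23 (-0.05 to 0.93). For the change of the sort difference, the members after Olfr130 were Olfr127 (-1.02 ± 0.49, -2.05 to 0.01) and Olfr136 (1.02 ± 0.51, -0.05 to 2.10), the largest in either direction and both short of the threshold. Olfr124, the broadly tuned receptor, differed between odor and vehicle by -0.40 ± 0.38 in GFP+ cells (95% interval -1.21 to 0.41), and Olfr110 by -0.27 ± 0.48 (-1.27 to 0.74).

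**Figure D4:**
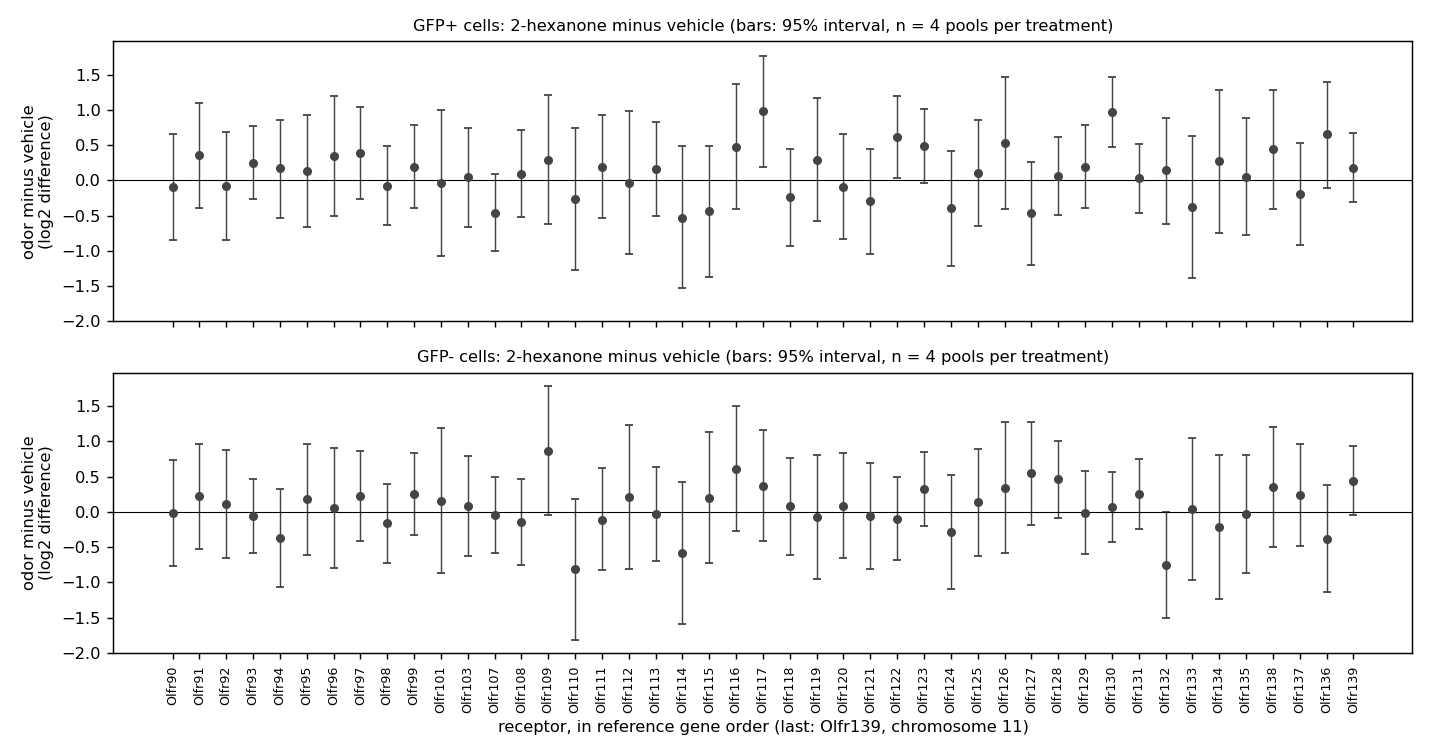
Points give the log2 difference between 2-hexanone and vehicle (vertical axis) for each of the 45 receptors in reference order, in GFP+ (top) and GFP- cells (bottom), with bars for the 95% interval of the fit (4 pools per treatment). The differences lie between -0.53 and 0.98 in GFP+ and between -0.81 and 0.87 in GFP- cells, and the intervals that leave 0 out in GFP+ cells are those of Olfr117, Olfr122 and Olfr130.

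Of 18 listed genes that act in receptor choice, trafficking and signalling, 1 rose and 1 fell in vehicle, and 0 rose and 2 fell in odor (median 0.23 and 0.15), beside the shares of all probe sets given with the members' counts. Adcy3, which neurons need to hold a receptor choice stable, rose in vehicle (0.50 ± 0.14, adjusted p = 0.0229). Lbr, the lamin B receptor whose loss from the nuclear envelope accompanies the folding of silent receptor genes, fell in vehicle (-2.06 ± 0.30, 4.71e-05) and odor (-2.18 ± 0.30, 2.41e-05), and Cbx5, a heterochromatin protein, fell in odor (-0.94 ± 0.24, 0.0121). Lhx2 and Ebf1, regulators named with the motifs, were not called. None of the 18 was called for odor in either fraction.

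Markers of other cell types were also compared, since the GFP- fraction is everything the sort left behind. Immune markers fell in GFP+ cells, 9 of 9 measured in both treatments (median -8.81 and -8.98), with a mean level over the list of 11.77 to 14.06 on GFP- and 4.74 to 5.51 on GFP+ arrays. On GFP+ arrays Ngp lay above the floor on 2 of 4 in vehicle and 3 of 4 in odor, Lyz2 on 1 and 2, and S100a9 on 0 and 1; the other 6 (Ptprc, S100a8, Itgam, Csf1r, Tyrobp and Spi1) were above it on none. Immature neuron markers fell in 6 of 6 in vehicle and 5 of 6 in odor (median -2.77 and -2.62). Of these, Gap43, Stmn2 and Marcks were above the floor on all GFP+ arrays, Dpysl3 on 2 of 4 in vehicle and 4 in odor, Sox11 on 2 and 3, and Gng8 on none. Sustentacular markers fell in 6 of 8 (mean level 7.75 to 8.29 on GFP- and 5.83 to 6.51 on GFP+ arrays), microvillous markers in 5 of 5 (7.24 to 8.07 and 4.36 to 5.04), basal and progenitor markers in 3 of 6, the 1 erythroid marker measured (Slc4a1), and 1 of 3 vomeronasal markers (Gnai2), in each treatment. Notch2 (sustentacular), Chat (microvillous) and Neurog1 (basal and progenitor), each counted among these falls, lay above the floor on none of the arrays. Krt5, Krt14 and Trp63, the basal and progenitor markers that were not called, also lay above it on none. The other falls on that list were those of Mki67 and Top2a. Of the sustentacular markers, Cyp2g1 lay above the floor on all GFP+ arrays (means 12.97 in vehicle and 13.7 in odor). Sult1c1 did so on 3 of 4 in vehicle and 4 in odor, and Cyp1a2 on 1 in each. Krt18 and Krt8 lay above it on no GFP+ array. The vomeronasal markers Gnao1 and Calr4 were not called. Gnao1 lay above the floor on all arrays and Calr4 on none. None of the listed marker genes was called for odor in either fraction. Their part in the sort differences of the receptors was not tested.

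Of 20 genes other than receptors that the reference table places between the first and the last member on chromosome 17, 2 were measured. H2-M3, an MHC class I gene that presents formylated peptides, was lower in GFP+ cells by -2.11 ± 0.33 (adjusted p = 0.000103) and -1.81 ± 0.33 (0.000512). Its values were 3.33, 3.64, 3.89 and 3.40 in vehicle GFP+ and 5.19, 5.24, 5.25 and 7.02 in vehicle GFP- cells, and 3.59, 3.65, 4.14 and 3.85 and 5.17, 5.62, 5.97 and 5.73 in odor, of which 1 array lay above its floor, so no fold is given. With arrays raised to their floor both calls were lost (-0.30, adjusted p = 0.596, in vehicle and 0.02, 0.961, in odor). Ubd, a ubiquitin-like protein gene, lay under the floor on all 16 arrays and was not called.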

How the data were processed

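A total of 16 Clariom S mouse arrays were analysed, one per sorted sample, made from 50 to 100 ng of RNA. Per the submitters' processing notes, the authors used Affymetrix Expression Console, and the table they deposited holds a log2 signal for each probe set; program version, summarisation method and annotation build: not given in the sources used here. Of 28846 rows, 6640 control rows were left out and 22206 were tested. The platform annotation gave 1 symbol for 19572 probe sets, several for 0 and none for 2634. The 19572 identifiers all matched the reference table of assembly GRCm38.p6, used for names, families and gene order.

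Groups and replicate numbers came from sample titles. The limma package (3.58.1, in R 4.3.3; lmFit, eBayes) was fitted to 4 group means over 16 arrays, with 12 residual degrees of freedom and Benjamini-Hochberg adjustment over all 22206 probe sets; a call is an adjusted p below 0.05, and 95% intervals use the fit's moderated degrees of freedom. GFP+ was compared with GFP- within vehicle and within odor, odor was compared with vehicle within GFP+ and within GFP-, and the change of the sort difference with odor was a further contrast. The p-values measure the spread between pools of different mice. Array number limits the precision. Where all arrays of the dimmer group lay under their background floor, the fold is a lower bound, with each dim array set to its floor or its own value, whichever was higher.

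Both fractions of a pool come from the same mice. The correlation of their deviations from the group means was 0.425, 0.075, 0.161 and 0.109 in the odor pools and 0.352, 0.014, 0.052 and 0.084 in the vehicle pools, and the pool and the replicate number were tried as blocks.

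The members and the gene lists were chosen with earlier results of these data known. Array values are given in full for S100a5 and Omp, for the 10 highest and 10 lowest of the members called in the same direction in both treatments (mean of both differences), for members called in 1 treatment, and for the 3 of lowest p in each odor contrast; marker lists and neighbours were read from the same fit. Alternatives covered blocks, normalization, filters on dim probe sets, array weights, the prior, the floor and leaving out each pool. Protein identity was not analysed here.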

Additional observations from a re-analysis of the deposited data

Results flagged for a closer look

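In 7 of the 116 groups of 4 arrays tested, 1 array stood far from the other 3, by Dixon's test at the 95% level; chance alone gives about 1 in 20. Among the members these were Olfr125 in odor GFP- replicate 2, low at 6.21, and Olfr124 in odor GFP- replicate 4, low at 7.83. Olfr116 was high in odor GFP+ replicate 2, at 8.85. Olfr114 was low in vehicle GFP- replicate 4, at 7.30, and Olfr123 was high in vehicle GFP- replicate 2, at 7.30. Outside the members, Omp was low in vehicle GFP+ replicate 3, at 19.19, and H2-M3 was high in vehicle GFP- replicate 4, at 7.02.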

How the results depend on the processing

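Over 21 alternative settings for each sort comparison, members called ranged from 13 to 18 higher and 10 to 12 lower in vehicle, and from 13 to 18 higher and 8 to 13 lower in odor; in the odor comparisons the count stayed at 0 under every setting that gave a value. Of the 24 members called in both treatments, 18 kept both calls in every setting. Using the replicate block the counts were 15 higher and 12 lower in each treatment, and a random block for the pool likewise gave 15 higher and 12 lower in each treatment; the paired fits changed no calls of members other than those given with Olfr109, Olfr123, Olfr128, Olfr130 and Olfr137. Same-numbered arrays of the 2 treatments also deviated together for replicate 1 (correlation 0.419 in GFP+ and 0.354 in GFP- cells); without both replicate 1 pools the counts were 15 and 12 in vehicle and 13 and 11 in odor. Leaving out 1 pool gave 13 to 15 higher and 11 to 12 lower in vehicle, and 13 to 16 higher and 10 to 11 lower in odor. Centring each array on its median raised the calls over all probe sets in vehicle from 1295 to 8986 higher, and quantile normalization to 1972; the members then counted 18 and 16 higher. With arrays raised to their floor, the odor difference turned sign for Olfr128 (0.02) and H2-M3 (0.02). Leaving out 1 vehicle pool put the vehicle difference of Omp between -0.04 and 0.06 (-0.01 without vehicle replicate 2, -0.04 without vehicle replicate 4), and after centring Omp was called higher in vehicle (0.37, limma adjusted p = 0.0418) and odor (0.44, 0.0196); the cause was not tested. Over the 45 members, both treatments and each setting that gave a value, 1833 of 1886 member values kept their call, 25 lost it and 28 newly passed, in 16 members. Signal near the background floor limits the folds of members that lie under it in 1 fraction.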
